A study of Homo sapiens with 2 samples.

Results

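The MYC, MAX and MXD network is a group of basic helix-loop-helix leucine zipper transcription factors that compete for the same DNA site. The list held 10 genes, MYC, MYCN, MYCL, MAX, MXD1, MXD3, MXD4, MNT, MGA and MLX. All probe sets annotated to 1 of these genes alone were taken, which gave 34 probe sets of 9 genes among 41091 probe sets with a single gene on the array. MXD4 was left without a value, because its 3 probe sets are shared with MIR4800 in the annotation.

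The cells were U87, an established line from a human glioblastoma. They were transfected with Lipofectamine RNAiMAX and 50 nM of either a control siRNA or HOXD9 siRNA-2, and total RNA of Day 2 was hybridized to Affymetrix U133 Plus 2.0 arrays, 1 array for each siRNA. No second array or second HOXD9 siRNA was analysed here, so no SD, p-value or test between the conditions can be given. An effect of lower HOXD9 and any other effect of this siRNA cannot be told apart in this design, nor can a lower signal in every cell and a loss of the cells that carried it.

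MYC proteins bind DNA as dimers with MAX and raise transcription of genes for ribosome production, metabolism and cell cycle entry. The MXD proteins, MNT and MGA also dimerize with MAX and mostly repress the same sites, MXD and MNT through the SIN3 corepressor and MGA within a polycomb complex. MLX is a MAX-like partner that pairs with the glucose-responsive MONDO proteins as well as with MXD1, MXD4 and MNT. MYC is well known as a growth-promoting oncogene and MYC activity has been linked to glioma stem cell survival.

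The site that all these dimers share is the E-box, CACGTG. The RefSeq promoter table (GRCh38.p14, 250 bases before to 50 after each start) held 12 windows of 9 network genes and none of MYC. The E-box, which reads the same on both strands, stood in 3 of these 12 windows, 1 each of MNT, MLX and MXD4, and in 7.26% of all 35116 windows. The promoters of MXD3 and MAX, the members with the lowest ratios below, are set here beside those of MNT and MLX, whose windows hold the network's own site. Capitals mark the E-box in MNT and MLX, and the GC box (GGGCGG) and CCAAT box (CCAAT), on either strand, in MXD3 and MAX.
MXD3 promoter, chr5:177312703-177313002, minus strand: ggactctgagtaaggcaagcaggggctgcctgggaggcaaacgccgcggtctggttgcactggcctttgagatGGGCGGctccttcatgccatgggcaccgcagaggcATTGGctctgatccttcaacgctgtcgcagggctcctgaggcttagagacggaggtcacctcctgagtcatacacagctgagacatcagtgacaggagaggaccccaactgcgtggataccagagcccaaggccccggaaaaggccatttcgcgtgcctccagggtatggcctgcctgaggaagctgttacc
MAX promoter, chr14:65101635-65101934, minus strand: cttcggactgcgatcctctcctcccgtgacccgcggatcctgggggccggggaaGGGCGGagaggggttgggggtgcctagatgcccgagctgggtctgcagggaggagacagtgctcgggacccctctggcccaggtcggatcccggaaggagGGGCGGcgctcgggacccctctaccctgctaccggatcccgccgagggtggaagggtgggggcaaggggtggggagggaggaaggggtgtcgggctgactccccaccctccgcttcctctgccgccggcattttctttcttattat
MNT promoter, chr17:2401011-2401310, minus strand: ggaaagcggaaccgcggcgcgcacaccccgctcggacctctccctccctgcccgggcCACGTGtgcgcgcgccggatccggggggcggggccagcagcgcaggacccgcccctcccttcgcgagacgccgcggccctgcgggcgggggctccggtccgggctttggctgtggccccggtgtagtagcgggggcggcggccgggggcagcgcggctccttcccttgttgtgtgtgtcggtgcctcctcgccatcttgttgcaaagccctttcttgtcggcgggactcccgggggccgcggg
MLX promoter, chr17:42566850-42567149, plus strand: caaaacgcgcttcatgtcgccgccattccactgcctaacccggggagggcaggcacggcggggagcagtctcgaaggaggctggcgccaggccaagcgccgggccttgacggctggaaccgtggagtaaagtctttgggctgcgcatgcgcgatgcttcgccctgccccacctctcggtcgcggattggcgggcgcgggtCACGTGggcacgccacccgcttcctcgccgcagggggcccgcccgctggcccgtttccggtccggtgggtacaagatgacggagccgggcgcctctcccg
The MXD3 window held 1 GC box and 1 CCAAT box and the MAX window 2 GC boxes. The other MAX window in the table held neither motif, and no MXD3 or MAX window held the E-box or TTTNNCGC, a pattern of E2F sites. The GC box was present in 45.0% of all windows, the CCAAT box in 34.6% and TTTNNCGC in 6.89%. These matches describe letters in a window and not bound sites.

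Signals were those deposited by the authors, on a linear scale, and each ratio is that of HOXD9 siRNA-2 to control siRNA. The arrays had median signals of 22.5 (control siRNA) and 18.3 (HOXD9 siRNA-2), so most ratios fell below 1, and bringing the arrays to one median raised every log2 ratio by 0.30. Background was taken as the highest signal of 27 Bacillus subtilis control probe sets, which was 11.4 with control siRNA and 18.4 after HOXD9 siRNA-2, and 18.4 served for both arrays. A probe set passed the signal filter when its mean signal reached the median of all, 19.8. HOXD9 itself gave 19.7 and 5.58 on its brighter probe set, and 9.33 and 11.4 on the other, so only 1 of the 4 signals lay above the background. GAPDH, the reference of the study's PCR assays, had log2 ratios from -0.03 to -0.02 as deposited and from 0.27 to 0.28 after centering. The mesenchymal markers VIM and CD44 read 11349 and 5638 on their brightest probe sets with control siRNA, whereas GFAP, S100B, AQP4 and OLIG2, markers of glia, lay within the background on both arrays, as did the leukocyte marker PTPRC. NES, a neural stem cell marker, gave 116.0 and 70.6 and SOX2 did not pass the filter. MTAP and CDKN2A, genes of the 9p21 deletion of U87, reached no more than 22.5 and 26.9. Both values exceed the background of 18.4, and 1 of the 2 genes passed the filter. A signal slightly above the background or the filter therefore does not show that a gene is expressed. Of 6 markers of neurons, leukocytes and endothelium, 3 passed the filter, SNAP25 (549.1 and 379.0), SYT1 (91.8 and 30.3) and PECAM1 (43.4 and 40.3), and any part of this in the values below was not tested.

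**Figure D1:**
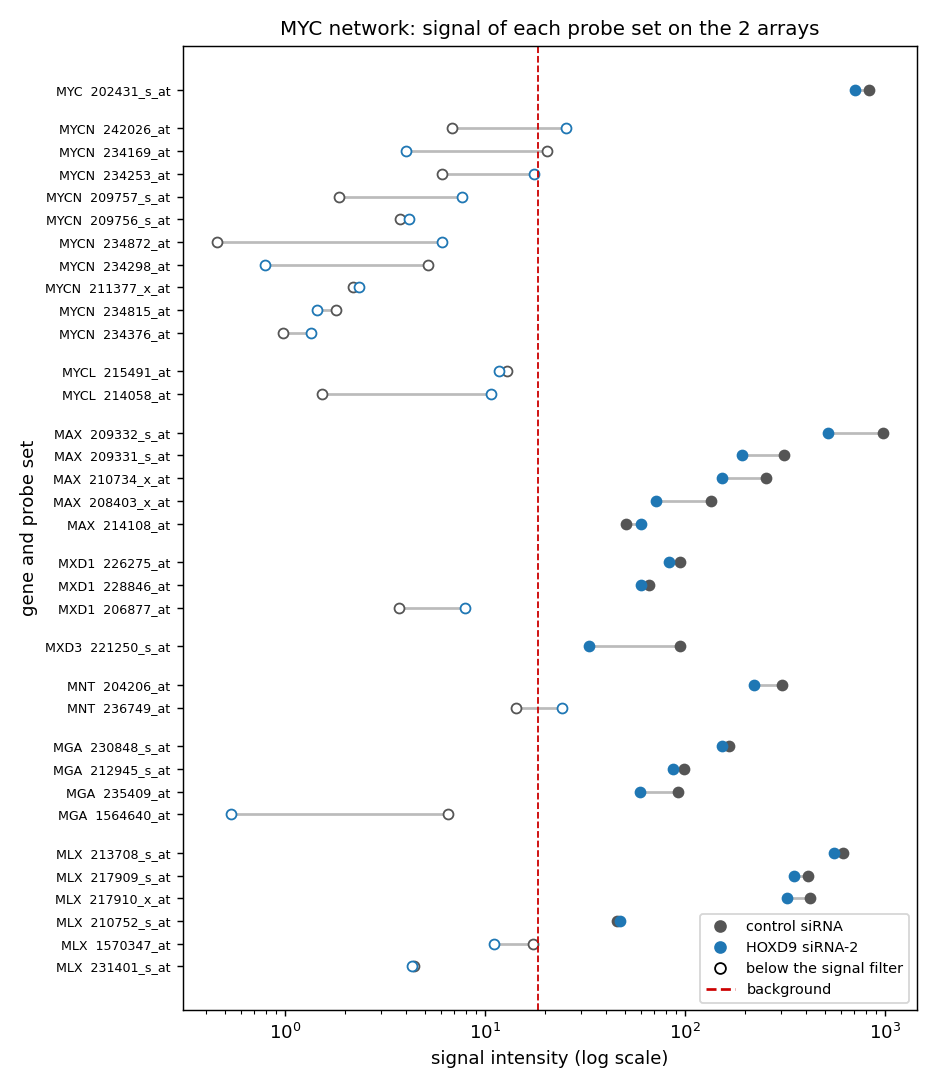
Signal intensity (x axis, log scale) of every network probe set (y axis, grouped by gene) with control siRNA (gray) and HOXD9 siRNA-2 (blue). Open points are probe sets below the signal filter, and the dashed line is the background of 18.4. All 5 MAX probe sets and that of MYC lie above the line on both arrays, whereas the MYCL points and all but 2 of the MYCN points lie below it.

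Of the 34 network probe sets, 17 passed the signal filter, from 7 genes, and all 17 were above the background on both arrays. Of these 17, the single probe set of MXD3 was lower by more than 2-fold after HOXD9 silencing, which makes 1 lower and 0 higher. The same threshold was passed downward by 6.69% and upward by 0.615% of all 27307 probe sets that met the filter, so the network's share did not stand out from that of the array. The median log2 ratio over the 7 genes, each by its brightest probe set, was -0.24, against -0.25 over 11624 genes. The 7 values ran from -1.51 to -0.12, with MXD3 and MAX the lowest.

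Replicate error being unknown, the disagreement between probe sets of a gene served as the yardstick. Their log2 ratios had a pooled within-gene SD of 0.41 over 6081 genes. Over 3 signal groups of like size this SD was 0.57 in the dimmest, which reached a mean signal of 72.7, 0.33 in the middle one, up to 240.6, and 0.25 in the brightest. It measures how far probe sets on the same 2 arrays disagree and holds no difference between cultures.

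MXD3 encodes an MXD protein that is made during S phase in proliferating cells and competes with MYC for MAX. Its 1 probe set (221250_s_at) gave a signal of 94.2 with control siRNA and 33.2 after HOXD9 siRNA-2. Both signals lay above the background, and the second was 35.2% of the first, a log2 ratio of -1.51. Of the 27307 probe sets above the filter, 1.71% had a ratio as low, and of those in the same dimmest signal group 3.44%. The value stood 2.15 SDs of that group below the median of all probe sets. After the arrays were centered on their medians the log2 ratio was -1.21, still past 2-fold, as were 2.94% of all probe sets above the filter in this direction, and it was -1.16 after quantile normalization and -1.17 after loess. No other probe set reads MXD3 here, and this one has the _s_at ending of probes that can match several transcripts, so the value has no check within the array.

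MAX encodes the obligate partner of MYC proteins and a partner of MXD and MNT proteins, and was read by 5 probe sets, all above the filter. The brightest (209332_s_at) gave 975.8 with control siRNA and 516.3 after HOXD9 siRNA-2, a log2 ratio of -0.92. The next (209331_s_at) gave 311.5 and 191.3, a log2 ratio of -0.70. Probe set 210734_x_at gave 252.2 and 152.1, and 208403_x_at gave 134.1 and 71.0. Their log2 ratios were -0.73 and -0.92. These 4 probe sets were all lower with HOXD9 siRNA-2, by 1.63-fold to 1.89-fold, short of 2-fold. The dimmest one (214108_at) went the other way, with signals of 50.7 and 60.0 and a log2 ratio of 0.24.

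The SD over the 5 MAX probe sets was 0.49, against the pooled 0.41, and their median log2 ratio was -0.73. It was above the SDs of 0.33 and 0.25 in the middle and brightest signal groups, which hold all of them but 214108_at. Of 1237 genes that had at least 4 probe sets above the filter, 6.71% had a median as low as that of MAX. Of the same genes 10.8% had a probe set at least as far from the median of its gene as 214108_at was, 0.97. On the brightest MAX probe set, the ratio lay 2.58 SDs of the brightest signal group below the median of all probe sets, and 2.40% of that group had a ratio as low. With centered arrays the 5 log2 ratios were -0.62, -0.40, -0.43, -0.62 and 0.54 in the same order. The 4 lower probe sets all carry an _s_at or _x_at ending, the array's mark for probes that can also match other transcripts, of the same gene or another, and 214108_at does not.

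MYC was read by 1 probe set (202431_s_at), with signals of 830.4 with control siRNA and 702.6 after HOXD9 siRNA-2. Its log2 ratio of -0.24 was near the median of all probe sets above the filter, -0.28, and 54.4% of them had a ratio as low. After centering it was 0.06, with the sign turned, and it was 0.02 after quantile normalization and 0.00 after loess. MYC thus lay with the typical probe set of these arrays, and the sign of its ratio depends on the scaling. MYC protein was not measured.

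MYCN and MYCL, the family members known from neuroblastoma and small cell lung cancer, were not detectable above the background on both arrays by any probe set. All 10 MYCN probe sets failed the filter, and 8 of them lay within the background on both arrays. Of the other 2, 242026_at gave 6.86 and 25.4, at least 1.38-fold higher against the background, and 234169_at gave 20.4 and 4.04, at least 1.11-fold lower. The MYCN probe sets that rose above the background on 1 array thus pointed opposite ways. The 8 within it were 234253_at, 209757_s_at, 209756_s_at, 234872_at, 234298_at, 211377_x_at, 234815_at and 234376_at, with signals of 17.4 at most. MYCL was read by 2 probe sets, with signals of 12.9 and 11.7 on 215491_at and 1.53 and 10.7 on 214058_at, all within the background. Among the 17 network probe sets below the filter 9 had a measured ratio past 2-fold, 3 lower and 6 higher. On the whole array 30.9% of the probe sets below the filter were lower and 20.4% higher by that much, and none of the 9 was past 2-fold when the dimmer signal was taken at 18.4.

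MNT, which encodes the most widely expressed MAX-binding repressor, gave 303.9 with control siRNA and 221.6 after HOXD9 siRNA-2 on its brighter probe set (204206_at). This log2 ratio of -0.46 was 0.72 SDs of the brightest signal group below the median of all probe sets, and -0.16 after centering. The other probe set (236749_at) gave 14.3 and 24.3 and failed the filter, at least 1.32-fold higher against the background. The directions of the 2 MNT probe sets thus differed.

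MXD1, an MXD protein that rises in differentiating cells, gave 94.6 with control siRNA and 83.2 after HOXD9 siRNA-2 on 226275_at, and 66.2 and 59.8 on 228846_at. The log2 ratios of -0.19 and -0.15 differed by far less than the pooled SD and were slightly above the median of all probe sets. The third MXD1 probe set (206877_at) gave 3.69 and 7.91 and lay within the background. The relatives MXD1 and MXD3 thus differed in their ratios. By brightest probe sets, the log2 ratio of MXD3 minus that of MXD1 was -1.32, a difference that a common factor on either array leaves as it is.

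MGA, a very large protein with both a T-box and a MAX-binding domain, had log2 ratios of -0.12 and -0.18 on its brighter probe sets, 230848_s_at (165.8 and 152.9) and 212945_s_at (98.8 and 86.9). The third above the filter (235409_at) gave 92.0 and 59.5, a log2 ratio of -0.63, or -0.33 after centering. The last (1564640_at) gave 6.52 and 0.54, within the background, so its measured ratio is not read. The spread of the 3 kept values, an SD of 0.28, was less than the pooled SD.

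MLX gave 613.9 with control siRNA and 556.1 after HOXD9 siRNA-2 on its brightest probe set (213708_s_at), a log2 ratio of -0.14. The other probe sets above the filter gave 409.7 and 350.5 (217909_s_at), 417.9 and 320.8 (217910_x_at), and 45.8 and 47.2 (210752_s_at), with log2 ratios of -0.23, -0.38 and 0.04. All 4 lay within 0.56 SDs of their signal group from the median of all probe sets. After centering they ran on both sides of 0, from -0.08 to 0.34. The remaining 2 MLX probe sets, 1570347_at (17.4 and 11.01) and 231401_s_at (4.38 and 4.29), lay within the background on both arrays.

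**Figure D2:**
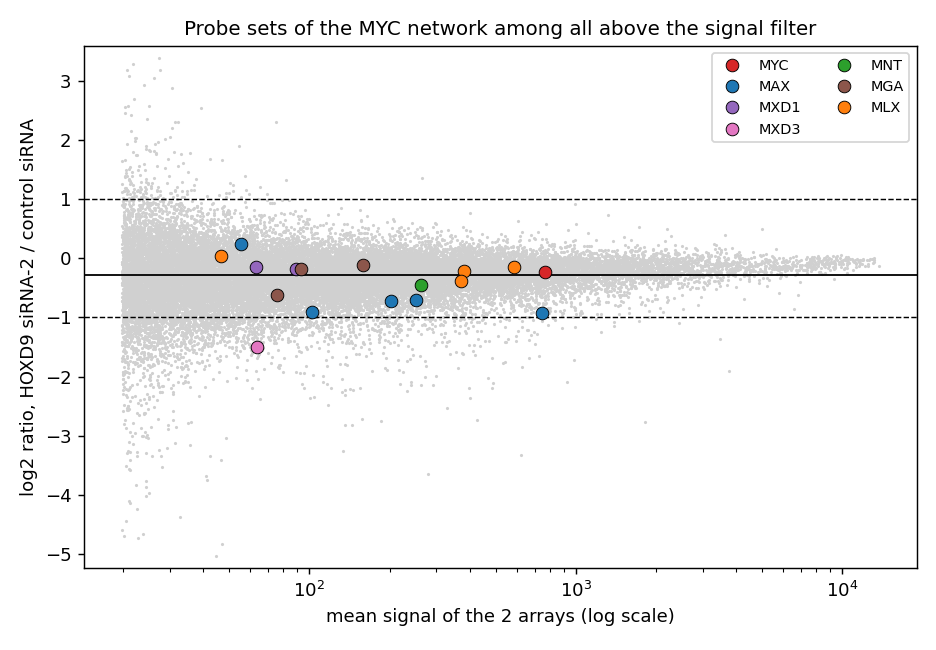
Log2 ratio of HOXD9 siRNA-2 over control siRNA (y axis) against the mean signal of the 2 arrays (x axis, log scale) for the 17 network probe sets above the signal filter (colored by gene) and all 27307 such probe sets (gray). The solid line is the median of all, -0.28, and the dashed lines mark 2-fold. MXD3 at -1.51 and 4 of the 5 MAX points lie in the lower part of the cloud, and MYC at -0.24 lies on the median line.

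Differences between the log2 ratios of members do not change when an array is multiplied by a constant. By brightest probe sets, the log2 ratio of MAX minus that of MYC was -0.68, and minus that of its relative MLX it was -0.78. By the mean over all kept probe sets of a gene, MAX stood at -0.60, and the difference from MYC shrank to -0.36, within the pooled SD of 0.41. That SD is of single probe sets, so it is a rough yardstick for this mean of 5, whose median was -0.73. The log2 ratio of MXD3 minus that of MYC was -1.27, and minus that of MAX it was -0.59. Relative to MYC, MAX stood at 0.625 and MXD3 at 0.416 of their control siRNA proportion. The differences of MNT, MXD1, MLX and MGA from MYC were -0.21, 0.06, 0.10 and 0.12, all within the same SD. By the means MNT stood at -0.46 and MGA at -0.31, so the distance of MAX from the other detected members depends on the probe sets taken. MXD3 lay below each of the others, MAX included, by more than the pooled SD either way. Its difference of -0.59 from MAX was close in size to the SD of 0.57 in the dimmest signal group, which holds MXD3. A difference of 2 values also spreads more than 1 value, so it is not set apart from disagreement between probe sets. MYC, MXD1, MLX and MGA lay together and turned from slightly below 0 to slightly above 0 when the arrays were centered.

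**Figure D3:**
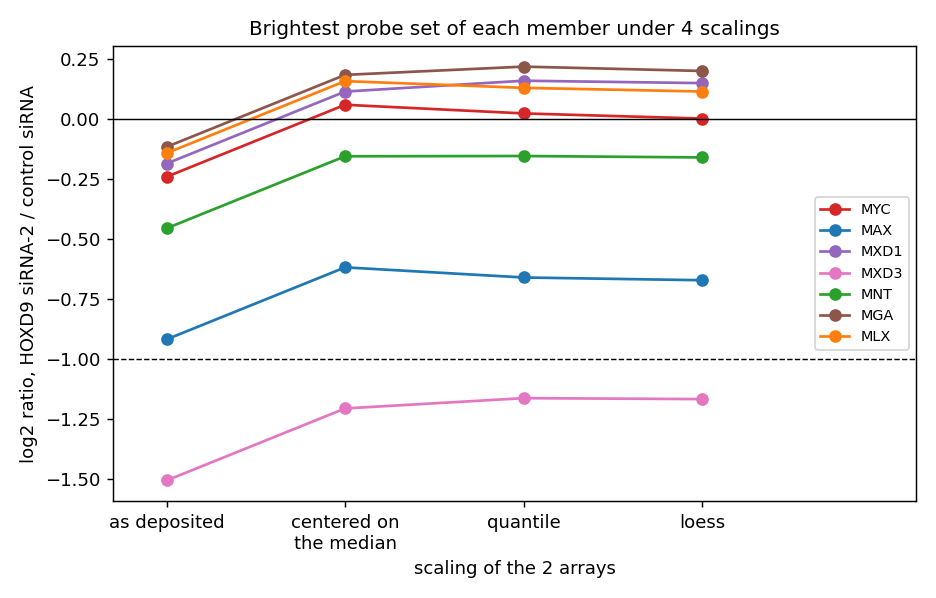
Ratio on the log2 scale of HOXD9 siRNA-2 to control siRNA (y axis) for the brightest probe set of the 7 detected members under 4 scalings of the arrays (x axis). The dashed line marks 2-fold lower. MXD3 stays below it in all 4, MAX stays between -0.92 and -0.62, and MYC, MXD1, MLX and MGA move from below to above 0.

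The remaining genes of the pathway were taken from 9 lists with 115 entries, of which 95 passed the filter, 9 lay below it and 11 are not named here. On the brightest probe set 2 of the 95 passed 2-fold downward and 1 upward, against 4.95% and 0.516% of 11624 genes. The counts and medians of each list below are also by the brightest probe set. The medians of the lists ran from -0.31 to 0.01, around the -0.25 of all genes.

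Among the other partners of the network, MXI1, a further MXD protein, gave 353.8 with control siRNA and 352.0 after HOXD9 siRNA-2, a log2 ratio of -0.01 that became 0.29 after centering. MLXIP, which encodes MondoA, the main partner of MLX, gave 203.0 and 208.0 on its brightest probe set, a log2 ratio of 0.04, or 0.34 after centering. Of 4 targets of MONDO-MLX dimers none passed 2-fold. TXNIP, an inhibitor of glucose uptake that MondoA induces, was the lowest, with log2 ratios from -0.68 to -0.51 on 3 probe sets and signals of 1212 and 760.3 on the brightest, and KLF10 stood at -0.39.

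Of 16 cofactors that MYC and MXD recruit, none passed 2-fold on the brightest probe set, and their median log2 ratio was -0.24. The lowest by this measure were SIN3A, the scaffold of the corepressor bound by MXD proteins, at -0.46 (from -0.97 to -0.46 over 3 probe sets), and SAP18, a subunit of the same complex, at -0.44. Dimmer probe sets above the filter passed 2-fold in both directions. One of EP400 stood at -1.98 (52.7 and 13.3, the second within the background) and one of ZBTB17 at 1.02 (36.5 and 74.2). Of 8 partners of MGA in the polycomb complex PRC1.6 none passed 2-fold on the brightest probe set and the median was -0.31. PCGF6, the subunit that defines this complex, had the lowest such ratio with signals of 199.0 and 120.8, a log2 ratio of -0.72, and RING1 stood at -0.43. A dimmer probe set of CBX3 gave 75.0 and 37.0, a log2 ratio of -1.02, against -0.31 on its brightest.

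Among 14 genes of MYC protein turnover 1 was lower and 1 higher by more than 2-fold, and the median was -0.17. USP28, a deubiquitinase that stabilizes MYC, gave 48.4 with control siRNA and 20.1 after HOXD9 siRNA-2, a log2 ratio of -1.27 that came to -0.97, short of 2-fold, after centering. Its other 2 probe sets lay within the background. AXIN1, a scaffold of MYC degradation and of Wnt signaling, gave 20.8 and 45.5, a log2 ratio of 1.13, or 1.43 after centering. Both genes rest on 1 dim probe set close to the background on one array. SKP2 stood at -0.55 on its brightest probe set. Its other ones stood at -1.31 (292.6 and 118.2) and -1.20 (242.3 and 105.6), or -1.01 and -0.90 after centering. USP37 had log2 ratios of -0.62, -0.91 and -1.13, the last -0.83 after centering. In the other direction, a dim HUWE1 probe set gave 13.6, within the background, and 28.9, at least 1.57-fold higher.

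The known targets of MYC, taken as lists, stood near the median of all genes. Of 17 nucleolar and ribosome biogenesis genes none passed 2-fold and the median was -0.26. NOLC1, a nucleolar phosphoprotein, was the lowest at -0.66 (from -0.67 to -0.18 over 3 probe sets), followed by UTP20 at -0.57. Of 20 genes of metabolism and growth none passed 2-fold on the brightest probe set and the median was -0.16. By this measure PPAT, which catalyzes the first step of purine synthesis, stood lowest at -0.97, with 265.2 and 135.6 on its brightest probe set. Its other ones stood at -1.04 and -0.42. PRPS2, which makes the precursor of purines and pyrimidines, stood at -0.68. Some dimmer probe sets above the filter lay lower. Those of HK2 stood at -1.41 (51.6 and 19.4) and -1.45 (44.9 and 16.4, the second within the background), against -0.23 on its brightest. One of GART stood at -1.66 (50.0 and 15.8, the second within the background), against -0.51 on its brightest.

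Of 8 genes of cell cycle entry 1 was lower by more than 2-fold and the median was -0.31. This was E2F2, an activator of S phase genes, with signals of 142.9 and 50.7 and a log2 ratio of -1.49, or -1.19 after centering. Its other 2 probe sets were near the background, with a log2 ratio of 0.06 on one and at least 1.29-fold lower on the other. Of 6 genes known to be repressed by MYC none passed 2-fold and the median was -0.22. The largest change was that of GAS1, a growth arrest gene, at -0.65, with signals of 41.3 and 26.3, and GADD45A, a stress-induced growth arrest gene, followed at -0.37.

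**Figure D4:**
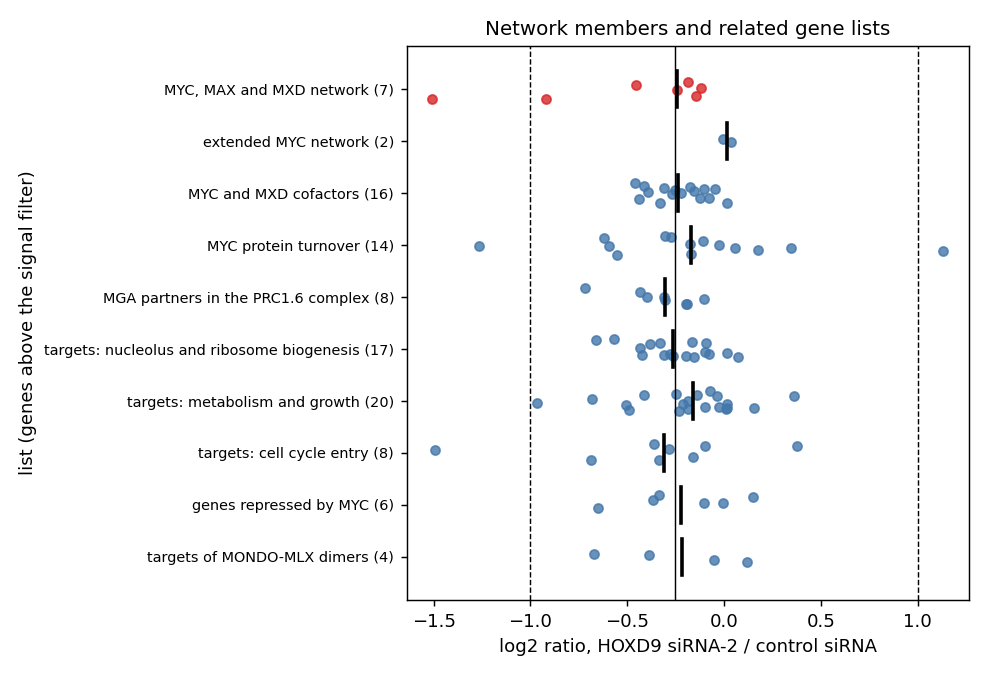
Brightest probe set (x axis, log2 ratio after HOXD9 siRNA-2 against control siRNA) for each gene above the signal filter in the network (red) and in 9 related lists (blue, y axis, number of genes in parentheses). Thick bars mark the medians, the solid line the median of all genes, -0.25, and the dashed lines 2-fold. The list medians lie between -0.31 and 0.01, and MXD3, USP28, E2F2 and AXIN1 are the points beyond 2-fold.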

How the data were processed

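Expression was measured in U87 cells on 2 arrays, 1 for each siRNA, grouped by sample title. The authors deposited 1 linear signal intensity per probe set and array. GCOS is named in the submitters' processing notes, with algorithm settings, scaling and detection calls not given in the sources used here. A difference in scaling by a constant factor moves every log2 ratio alike, whereas quantile normalization and loess shift them unequally.

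After 62 control probe sets were set aside, log2 ratios were computed for 54613 probe sets. The platform annotation gave 1 gene for 41091 probe sets, several for 1801 and none for 11721, and 41037 were matched to RefSeq by Entrez number. The filter, the background and the 2-fold threshold are as given above. A gene took its brightest probe set above the filter. Where 1 signal lay at or under 18.4, the bound is the other signal over 18.4. The number of arrays limits the precision, and no test was possible.

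Members and lists were chosen with earlier results of these data known. All probe sets of members read singly are named, and of each list the genes past 2-fold on the brightest probe set or otherwise the 2 with the largest change. Some list genes with a dimmer probe set past 2-fold are named as well. Planned protein comparisons were not run, because no protein sequences were used. The array shift, the pooled SD and the 2-fold calls were tested on simulated arrays, and the bounds on example signals. The simulation used the same SD at every signal and changed only probe sets brighter than that of MXD3. Other steps were not simulated. Alternatives were centering, quantile normalization, loess (fraction 0.3), no filter, a filter at the 70th percentile, the mean over probe sets, leaving out _x_at and _s_at probe sets, and each array's own background. Python 3.11.15, numpy 2.4.6, pandas 2.3.3, scipy 1.17.1 and statsmodels 0.14.6 were used.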

Additional observations from a re-analysis of the deposited data

How the results depend on the processing

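With 1 array per condition no replicate could be left out. No paired analysis was possible because each condition has 1 array. A value is called moved here when it shifted by more than the pooled SD between probe sets of one gene, 0.41, or when a count or share shifted by more than 1.5 times. Centering adds 0.30 to every log2 ratio, less than 0.41, so it could move no ratio or median by this measure and is left out of the next count. Of 120 values of single genes or probe sets under the other alternatives 118 did not move. Most of these could hardly move, so the count says little about stability. A change of filter leaves the ratio of a probe set as it is. Quantile normalization and loess, like centering, shifted each of these ratios by less than 0.41. Of 59 counts and shares under all alternatives 35 did not move. The median over the members turned from -0.24 to 0.06 after centering, 0.02 after quantile normalization and 0.00 after loess, and lay between -0.32 and -0.19 under the other alternatives. Of the 9 list medians 6 turned sign under each of these scalings, and 1 turned without _x_at and _s_at probe sets. The 2 single values that moved came from leaving out _x_at and _s_at probe sets, which put MAX at 0.24 on its 1 remaining probe set, with the sign turned, and MGA at -0.63. This alternative also left MYC, MXD3 and MLX without a value, so its member median of -0.32 rests on MAX, MXD1, MNT and MGA alone. Under it 0 network probe sets were past 2-fold as measured or against the background, and 5 remained above the background on both arrays.

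The count of network probe sets lower by more than 2-fold was 1 under every scaling, 4 with no signal filter, when 6 were higher, and 0 with the stricter filter, which leaves out MXD3 by its mean signal. Taken against the background of each array itself, 1 network probe set was higher by more than 2-fold, MYCN 242026_at, at least 2.24-fold. The share of all probe sets lower by more than 2-fold was 2.94% after centering, 2.78% after quantile normalization and 2.80% after loess, and the share higher 1.51%, 1.6003% and 1.57%. With no filter these shares were 18.8% and 10.5%, and with the stricter filter 2.94% and 0.0122%. Of the list genes 1 was lower by more than 2-fold after centering, 1 after quantile normalization and 1 after loess. With no filter 4 were lower and 4 higher, and with the stricter filter 1 and 0. By the mean over the kept probe sets of a gene 3 were lower and 1 higher.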
